A study of Mus musculus with 10 samples.

Results

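Human chromosome 21 (Hsa21) has its homologues on 3 mouse chromosomes. The homologues on mouse chromosome 16 (Mmu16) lie in the segment that Dp1Yey mice carry in 3 copies, whereas those on Mmu10 and Mmu17 lie outside it and stay in 2 copies. The genes described here were 49 of the latter, 31 on Mmu10 from Pdxk to Prmt2 and 18 on Mmu17 from Umodl1 to Rrp1b. They were a list chosen by chromosomal position, which leaves out some homologues between these limits, Cbs on Mmu17 among them. Of the probe sets annotated to exactly 1 of their symbols, the brightest of each gene gave its values. The dimmer probe sets of Slc19a1 and U2af1 are described apart. All 49 were measured, by 51 probe sets, among the 19938 genes of the table. In the mm10 assembly the Mmu10 members spanned 76207226 to 78464948 (2.26 Mb) and the Mmu17 members 30954648 to 32062865 (1.11 Mb).

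RNA of the whole hippocampus, left and right together, was hybridised mouse by mouse to the Affymetrix Gene 1.0 ST array for mouse. The 10 arrays came from 5 Dp1Yey mice, which carry the duplication of Mmu16 from Lipi to Zbtb21, and from 5 control littermates without it. Both groups were male, 16 weeks old and of the same background, given as C57BL/6N in the labels and as C57BL/6J in the study's methods. The question was whether genes that share their human chromosome with the trisomic segment, but not its dose, differed in the trisomic hippocampus.

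In Down syndrome every gene of Hsa21 is present in an extra copy, those with homologues on Mmu10 and Mmu17 included. Mouse lines that duplicate the Mmu16 segment alone leave these homologues at their normal dose. They include S100b, a calcium-binding protein made mainly by astrocytes, the collagen VI chains, the RNA-editing enzyme Adarb1, the SUMO modifier Sumo3 and the cyclic GMP phosphodiesterase Pde9a.

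The values are log2 signals after robust multi-array average (RMA) normalisation, so a difference of 0.58 corresponds to the 1.5-fold of 3 copies against 2. Each value is the signal of a probe set, and signals of different genes do not rank their amounts of RNA. A gene was taken as above background when its mean exceeded 5.44, the 90th percentile of 1027 olfactory receptor genes. Array medians ran from 6.31 to 6.37 in Dp1Yey and from 6.35 to 6.44 in control mice, and the mean of the olfactory receptor genes from 4.76 to 4.79 and from 4.79 to 4.85, so that dim genes as a body read slightly lower on the Dp1Yey arrays. The interquartile range of the arrays ran from 3.47 to 3.53 in Dp1Yey and from 3.40 to 3.51 in control mice. It thus went in part with group, and a fit that includes it cannot separate array spread from genotype. Of the 143 measured genes of the Mmu16 interval, 97 were above background, and 59 of these were called higher. All 9 measured hippocampal markers and all 7 pan-neuronal markers were above background, the latter with a mean log2 level of 12.06 to 12.09 in Dp1Yey and 12.00 to 12.06 in control mice. Choroid plexus genes stood out in control replicates 1, 4 and 5, with a mean over 7 markers of 8.50, 8.18 and 8.16 against 7.25 and 7.07 in control replicates 2 and 3 and 6.85 to 7.50 in Dp1Yey mice. Of these 7 markers, 2 (Clic6 and Kcne2) lie in the Mmu16 interval and so differ in dose between the groups. In whole tissue, fewer cells of a type and less RNA per cell cannot be told apart.

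None of the 49 members was called in Dp1Yey hippocampi. Cbs, an Hsa21 homologue on Mmu17 outside this list, was called lower and is described below. At an adjusted p under 0.05 (limma, Benjamini-Hochberg over all genes), 0 of 49 were higher, against 0.687% of all genes, and 0 of 49 were lower, against 0.11%. At an unadjusted p under 0.05, 5 were higher, against 8.75% of all genes, namely Pcbp3, S100b, Rrp1, Icosl and Cstb, all on Mmu10. A further 5 were lower, against 10.8%, namely Pcnt, Aire and Ftcd on Mmu10 and Tff1 and Abcg1 on Mmu17. Both shares, 10.2% each, lay near those of all genes. The rank statistic of fold changes that the study's methods describe, rewritten here, called 0 members higher, against 2.46% of all genes, and 2 lower, Aire and Tff1, against 0.993%.

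The intervals bound how far the members could have moved, as read at the brightest probe set of each gene. All 49 had a 95% interval that ended under 1.5-fold, as did 99.5% of all genes. The highest upper end was 1.36-fold, for Icosl, and the lowest lower end was 0.776-fold (-0.37 on the log2 scale), for Tff1. The dimmer probe set of Slc19a1, not counted here, had a log2 interval of -0.42 to -0.10, which reached lower and past 1.2-fold. The whole interval lay within 1.2-fold in either direction for 40 of 49 members, against 84.9% of all genes, with 27 of 31 on Mmu10 and 13 of 18 on Mmu17. The other 9 were Icosl, S100b, Aire and Ftcd on Mmu10 and Tff1, Tff3, Rsph1, Pde9a and Sik1 on Mmu17. In the Mmu16 interval, by comparison, 69 of the 97 genes above background had an interval under 1.5-fold and 21 lay within 1.2-fold. An interval under 1.5-fold therefore does not by itself tell a gene in 2 copies from a gene in 3. The median of these 97 genes was 1.25-fold, a level inside the intervals of Icosl, S100b and Sik1. The median log2 difference was -0.015 on Mmu10 and -0.055 on Mmu17, beside -0.015 over all genes and 0.32 over the Mmu16 genes above background.

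**Figure D1:**
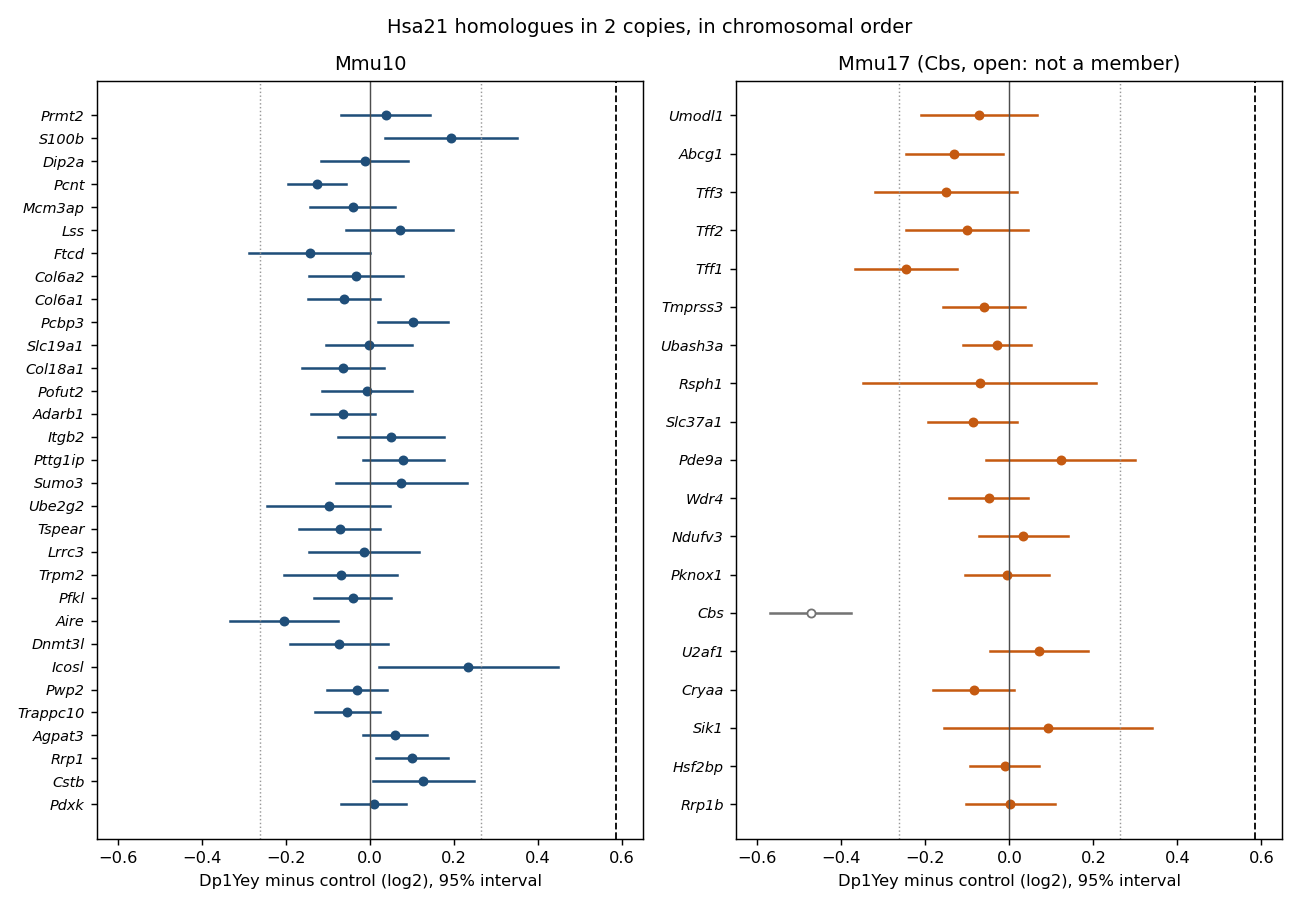
Log2 difference between 5 Dp1Yey and 5 control mice (x axis, point) with its 95% limma interval (line) for each member, in chromosomal order on Mmu10 (left) and Mmu17 (right). Dotted lines mark 1.2-fold in either direction and the dashed line 1.5-fold, and all 49 intervals end to the left of the dashed line. Cbs (open symbol) is an Hsa21 homologue on Mmu17 that is not among the 49 members.

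The same was seen mouse by mouse. For each gene the mean of the control mice was subtracted, and the remainders were averaged over the genes above background. Over the 30 such Mmu10 members this mean was -0.0073, 0.00020, 0.016, -0.014 and 0.00056 in Dp1Yey replicates 1 to 5 and 0.013, 0.025, -0.0084, -0.030 and 0.00085 in control replicates 1 to 5. The 2 groups overlapped, and every Dp1Yey mouse lay inside the control range. Over the 18 Mmu17 members the mean was -0.033, -0.051, -0.039, -0.045 and -0.051 in Dp1Yey and 0.080, 0.034, -0.064, -0.014 and -0.036 in control mice. The Dp1Yey mice again lay within the control range, which was wider here, with control replicates 1 and 2 above the others. Over the 97 Mmu16 interval genes, the Dp1Yey mice lay between 0.26 and 0.30 and the control mice between -0.024 and 0.019, with no overlap.

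**Figure D2:**
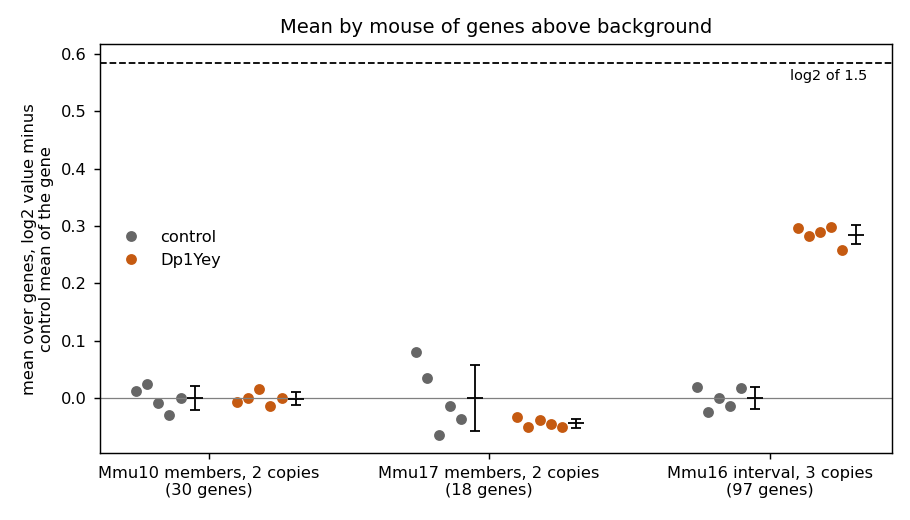
Mean over genes of the log2 value minus the gene's control mean (y axis), 1 point per mouse, for the Mmu10 members, the Mmu17 members and the Mmu16 interval genes above background. Bars are the mean ± SD of 5 mice, and the dashed line is log2 of 1.5. The Dp1Yey mice lie within the control range for both sets of members and at about 0.3 for the Mmu16 genes.

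The sign of a member's difference went with its array signal. Of the 20 members with a mean log2 value of 7 or under, 19 lay below control, and so did 6939 of the 9549 genes outside the Mmu16 interval at that level. Of the 16 members between 7 and 9, 8 lay above control, beside 3131 of 5755 genes. Of the 13 members over 9, 8 lay above control, beside 2557 of 4491 genes. The Mmu17 members gave the dimmer signals, with 12 of 18 at 7 or under and 1, Abcg1, over 9, whereas 8 of the 31 Mmu10 members were at 7 or under and 12 over 9. Over all 49, 17 lay above control, 34.7% against 42.1% of all genes. The part of the array-wide shift of dim genes in these signs was not tested member by member, and centring each array on its median moved the count above control to 28.

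**Figure D3:**
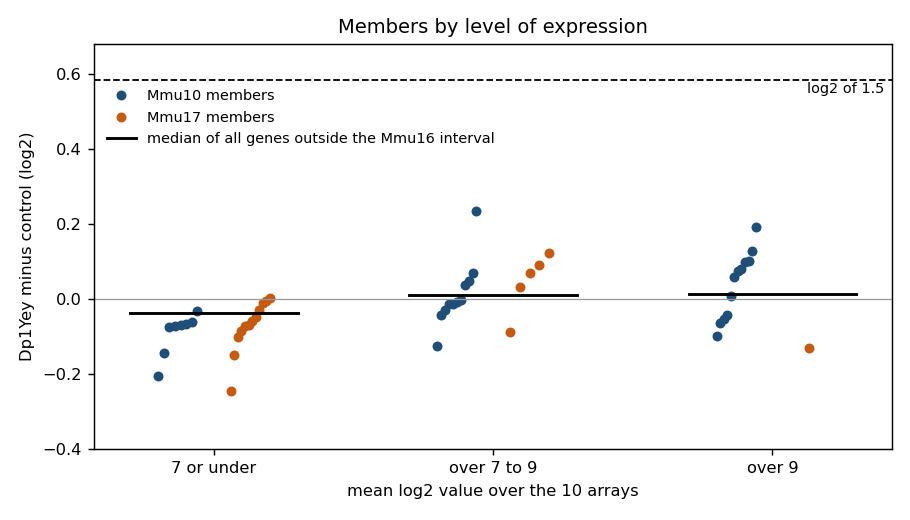
Log2 difference between Dp1Yey and control mice (y axis) of each member, by its mean log2 value over the 10 arrays (x axis, 3 classes), with Mmu10 and Mmu17 members apart. Black lines are the medians of all genes outside the Mmu16 interval in each class, and the dashed line is log2 of 1.5. All but 1 of the members at 7 or under lie below 0.

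Promoter sequence was at hand for 36 of the 49 members in RefSeq's annotation of GRCm38.p6 (mm10). Printed here are the 250 bases before the start of 3 of the 4 Mmu10 members of smallest p, because they represent 3 kinds of gene in this set, a ubiquitous centrosome gene (Pcnt), a gene of thymic epithelium (Aire) and an astrocyte gene (S100b). The promoter of the other, Pcbp3, was not at hand. Capitals mark the CCAAT box, which reads ATTGG on the other strand, and TATAAA.
Pcnt (GRCm38.p6, chr10:76442913-76443162, minus strand): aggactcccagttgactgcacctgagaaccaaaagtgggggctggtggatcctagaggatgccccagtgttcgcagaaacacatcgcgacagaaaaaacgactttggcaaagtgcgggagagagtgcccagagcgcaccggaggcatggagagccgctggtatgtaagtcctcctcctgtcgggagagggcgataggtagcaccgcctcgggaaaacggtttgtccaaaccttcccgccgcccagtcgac
Aire (GRCm38.p6, chr10:78043611-78043860, minus strand): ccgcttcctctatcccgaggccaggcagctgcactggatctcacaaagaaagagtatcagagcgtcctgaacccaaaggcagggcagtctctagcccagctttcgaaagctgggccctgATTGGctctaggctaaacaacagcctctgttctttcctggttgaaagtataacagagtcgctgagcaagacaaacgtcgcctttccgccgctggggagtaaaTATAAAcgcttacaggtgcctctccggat
S100b (GRCm38.p6, chr10:76253586-76253835, plus strand): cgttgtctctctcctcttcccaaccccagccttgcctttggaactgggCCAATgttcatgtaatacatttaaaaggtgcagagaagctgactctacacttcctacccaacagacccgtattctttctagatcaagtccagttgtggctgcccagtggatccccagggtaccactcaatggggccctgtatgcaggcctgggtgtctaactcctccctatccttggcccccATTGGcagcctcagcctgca
The Pcnt window held neither motif and 16 CpG dinucleotides, with a ratio of observed to expected CpG of 0.745. The Aire window held both motifs and a ratio of 0.625. The S100b window held CCAAT on both strands and 2 CpG dinucleotides, with a ratio of 0.117. These 3 windows contain no overlapping matches. Among all members, CCAAT was found in 11 of 36 windows, against 36.3% of 17492 promoters of the same length, and TATAAA in 4, against 12.4%. Of the other motifs searched on both strands, CCGGAAGT, bound by ETS factors such as the product of the Mmu16 gene Gabpa, was in 4 windows (Mcm3ap, Pofut2, Pwp2 and Trappc10), against 3.84%. TGTGGT of Runx factors was in 2, against 12.5%, TGACTCA of AP-1 and Bach factors in 2, against 4%, and TGACGTCA of CREB in 0, against 2.01%. The 4 members with CCGGAAGT had log2 differences of -0.042, -0.0081, -0.031 and -0.055, none past an unadjusted p of 0.05. A match is only a stretch of letters, and binding was not measured.

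Genes of the nucleolus and of RNA handling made up 8 members, 4 above and 4 below control, with the whole interval within 1.2-fold in all 8. Rrp1, a nucleolar protein of large ribosomal subunit assembly (Mmu10, Entrez 18114, 78400362 to 78413043), had the brightest signal of the members. It read 11.34, 11.27, 11.31, 11.33 and 11.30 in Dp1Yey replicates 1 to 5 and 11.24, 11.08, 11.25, 11.25 and 11.24 in control replicates 1 to 5. Rrp1 was the only member whose groups did not overlap with Dp1Yey higher (1 of 49, against 2.4% of all genes), and control replicate 2 stood below the other 4 control mice. The difference was 0.099 on the log2 scale (1.07-fold, 95% CI 1.01 to 1.14, adjusted p = 0.205, limma), and it was 0.065 without control replicate 2 and 0.042 (adjusted p = 0.919, limma) with the interquartile range of each array in the fit. Its paralogue Rrp1b on Mmu17 was dim, at 5.86, and differed by 0.0021 (95% CI -0.10 to 0.11). Pwp2, a component of the small subunit processome, differed by -0.031.

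Pcbp3, a poly(C)-binding protein, read 9.09, 9.07, 9.16, 9.17 and 9.07 in Dp1Yey and 9.06, 8.98, 9.08, 8.99 and 8.94 in control mice. The groups overlapped in control replicate 3 and the lowest Dp1Yey mice, with a difference of 0.10 (95% CI 0.019 to 0.19, adjusted p = 0.189, limma). Adarb1, the adenosine deaminase that edits glutamate receptor transcripts, read 9.70, 9.71, 9.71, 9.70 and 9.67 in Dp1Yey and 9.72, 9.87, 9.76, 9.71 and 9.75 in control mice. Its Dp1Yey values were tightly grouped at the low edge of the control values (difference -0.065, 95% CI -0.14 to 0.011, adjusted p = 0.320, limma), and control replicate 2 was the highest mouse. The difference was -0.038 without that mouse and -0.018 with each array centred on its median. U2af1, the small subunit of the factor that recognises the 3' splice site, read 8.09, 8.01, 8.07, 8.10 and 7.91 in Dp1Yey and 7.90, 7.82, 8.04, 8.05 and 8.02 in control mice. The groups overlapped (difference 0.070, 95% CI -0.046 to 0.19, adjusted p = 0.465, limma), with 0.032 without control replicate 2, and the second U2af1 probe set gave a like difference, 0.058. Mcm3ap, which acts in mRNA export, and Wdr4, a subunit of a tRNA methyltransferase, differed by -0.042 and -0.050.

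Genes of protein modification, trafficking and the centrosome made up another 8 members, again 4 above and 4 below control and all within 1.2-fold. Pcnt, the pericentriolar scaffold protein pericentrin (Mmu10, Entrez 18541, 76351254 to 76442912), read 7.17, 7.14, 7.24, 7.24 and 7.15 in Dp1Yey and 7.30, 7.30, 7.32, 7.32 and 7.33 in control mice. All 5 Dp1Yey mice lay below all 5 control mice, and the control mice spanned only 7.30 to 7.33. Its level was 7.19 ± 0.0496 (SD, n = 5) in Dp1Yey against 7.31 ± 0.0129 (SD, n = 5) in controls, and the difference was -0.13 (0.916-fold, 95% CI 0.873 to 0.961, adjusted p = 0.0887, limma). Pcnt, Aire and Tff1 were the 3 members whose groups did not overlap with Dp1Yey lower, against 2.46% of all genes. Without single arrays the Pcnt difference stayed between -0.14 and -0.11, and with each array centred on its median it was -0.079 (adjusted p = 0.275, limma).

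Sumo3, a small ubiquitin-like modifier, read 9.72, 9.66, 9.71, 9.78 and 9.68 in Dp1Yey and 9.67, 9.32, 9.72, 9.75 and 9.71 in control mice. The groups overlapped (difference 0.074, 95% CI -0.082 to 0.23, adjusted p = 0.571, limma). Control replicate 2 was far below the other mice, and without it the difference was -0.0049. Cstb, the cysteine protease inhibitor cystatin B whose loss causes a myoclonic epilepsy in humans, ran from 9.12 to 9.28 in Dp1Yey and 8.91 to 9.20 in control mice (difference 0.13, 95% CI 0.0067 to 0.25, adjusted p = 0.235, limma). Ube2g2, a ubiquitin-conjugating enzyme of endoplasmic reticulum quality control, differed by -0.099 (95% CI -0.25 to 0.048). The other 4 lay between -0.055 and 0.079, namely Trappc10 of the TRAPP vesicle tethering complex, Pofut2, which adds fucose to thrombospondin repeats, the arginine methyltransferase Prmt2 and the membrane protein Pttg1ip.

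Genes of metabolism and transport made up 10 members, 4 above and 6 below control, with 9 of 10 within 1.2-fold. Agpat3, an acyltransferase of phospholipid synthesis, had the second brightest signal, at 10.81, 10.84, 10.82, 10.80 and 10.93 in Dp1Yey and 10.82, 10.79, 10.75, 10.74 and 10.81 in control mice. Dp1Yey replicate 5 stood above the rest and the groups overlapped (difference 0.059, 95% CI -0.017 to 0.13, adjusted p = 0.356, limma), with 0.036 without that mouse. Pfkl, the liver-type subunit of phosphofructokinase, read 10.11, 10.24, 10.11, 10.22 and 10.20 in Dp1Yey and 10.27, 10.25, 10.25, 10.11 and 10.21 in control mice. Its groups covered nearly the same range (difference -0.042, 95% CI -0.13 to 0.049, adjusted p = 0.582, limma). Ndufv3, a small subunit of the flavoprotein part of complex I, read 8.58, 8.48, 8.46, 8.58 and 8.53 in Dp1Yey and 8.63, 8.41, 8.48, 8.55 and 8.40 in control mice, also overlapping (difference 0.033, 95% CI -0.073 to 0.14, adjusted p = 0.721, limma). Pdxk, the kinase that makes the active form of vitamin B6, was bright at 10.03 and differed by 0.0080 (95% CI -0.069 to 0.085).

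Abcg1, a transporter that moves cholesterol out of cells, had the brightest signal of the Mmu17 members. It read 9.61, 9.75, 9.64, 9.60 and 9.70 in Dp1Yey and 9.88, 9.88, 9.69, 9.65 and 9.85 in control mice. Control replicates 1, 2 and 5 lay above every Dp1Yey mouse, and the other 2 control mice within the Dp1Yey range (difference -0.13, 0.913-fold, 95% CI 0.843 to 0.990, adjusted p = 0.213, limma). Without control replicates 1 and 2 the difference was -0.070. Ftcd, an enzyme of histidine and folate metabolism best known in liver, was dim at 6.50 and differed by -0.14 (95% CI -0.29 to -0.000074, adjusted p = 0.256, limma). Slc19a1, the reduced folate carrier, differed by -0.0030 (95% CI -0.11 to 0.10) at its brighter probe set, of mean level 8.08. Its dimmer probe set, of mean level 6.46, differed by -0.26 (95% CI -0.42 to -0.10, adjusted p = 0.111, limma over all probe sets), so the probe sets of this gene disagreed. Lss, lanosterol synthase of the cholesterol pathway, differed by 0.070, Dip2a by -0.013 and the sugar-phosphate exchanger Slc37a1 by -0.088, with no unadjusted p under 0.05.

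Of the 6 members of immune and glial cells, 3 lay above and 3 below control. S100b (Mmu10, Entrez 20203, 76253836 to 76261319) was well expressed, at 9.86, 9.91, 10.02, 9.92 and 10.03 in Dp1Yey and 9.99, 9.51, 9.76, 9.76 and 9.76 in control mice. All Dp1Yey mice lay above 4 of the 5 control mice, whereas control replicate 1 lay among them and control replicate 2 was the lowest mouse. The level was 9.95 ± 0.0760 (SD, n = 5) in Dp1Yey against 9.76 ± 0.170 (SD, n = 5) in controls, and the difference was 0.19 (1.14-fold, 95% CI 1.02 to 1.27, adjusted p = 0.189, limma), which moved between 0.13 without control replicate 2 and 0.25 without control replicate 1. The 9 astrocyte markers, all above background, had a mean log2 level of 10.64 to 10.71 in Dp1Yey and 10.61 to 10.72 in control mice, with 1 of 9 past an unadjusted p of 0.05 (Gfap, higher).

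Aire, the transcriptional regulator that drives tissue antigens in thymic epithelium (Mmu10, Entrez 11634, 78030022 to 78043610), was dim. It read 6.41, 6.38, 6.48, 6.47 and 6.49 in Dp1Yey and 6.66, 6.86, 6.56, 6.68 and 6.50 in control mice. The groups did not overlap, though Dp1Yey replicate 5 and control replicate 5 nearly touched and control replicate 2 stood highest. The level was 6.45 ± 0.0465 (SD, n = 5) in Dp1Yey against 6.65 ± 0.139 (SD, n = 5) in controls, and the difference was -0.21 (0.867-fold, 95% CI 0.793 to 0.948, adjusted p = 0.116, limma). It was -0.069 (adjusted p = 0.839, limma) once the spread of each array (its interquartile range) entered the fit. That spread itself went in part with group, and in that fit the calls over all genes fell from 159 to 46.

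Icosl, a costimulatory ligand of antigen-presenting cells, ranged from 7.32 to 7.80 in Dp1Yey and 7.19 to 7.48 in control mice (difference 0.23, 95% CI 0.020 to 0.45, adjusted p = 0.224, limma), and Dp1Yey replicates 2 and 5 were the high mice. Itgb2, the beta chain of the leukocyte integrins carried by microglia, differed by 0.049 (95% CI -0.077 to 0.17). Of 12 listed microglial markers 11 were measured, all above background, with a mean level of 8.57 to 8.65 in Dp1Yey and 8.37 to 8.57 in control mice. None was called, 10 lay above control and 5 were higher at an unadjusted p under 0.05, against 8.75% of all genes. Their part in Icosl, Itgb2 and Cstb was not tested. Trpm2, a calcium-permeable channel gated by ADP-ribose, and Ubash3a, a regulator of T-cell receptor signalling, differed by -0.070 and -0.030.

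**Figure D4:**
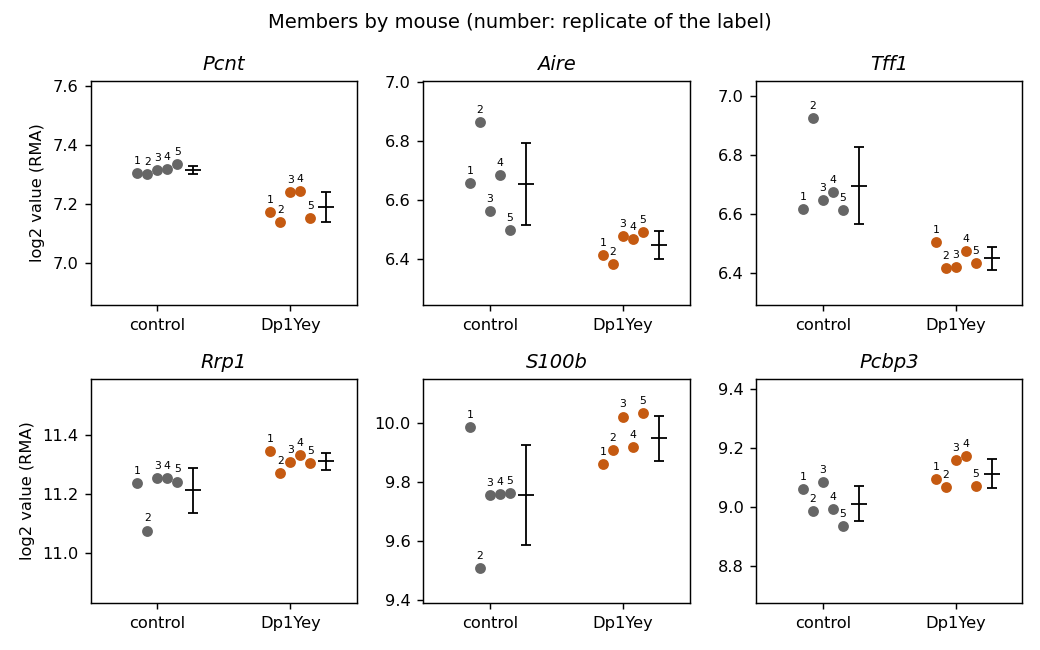
Log2 values (y axis, same span in each panel) of 6 members by mouse, with the replicate number beside each point and the mean ± SD of 5 mice beside each group. Pcnt, Aire and Tff1 are lower in every Dp1Yey mouse and Rrp1 higher, while S100b and Pcbp3 overlap. Control replicate 2 is the extreme control mouse for Aire, Tff1, Rrp1 and S100b.

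The 6 matrix and surface members all lay below control, all within 1.2-fold and none past an unadjusted p of 0.05. All but Lrrc3 had a mean log2 value of 7 or under, where 6939 of 9549 genes outside the Mmu16 interval lay below control. The part of this shift of dim genes was not tested. Col6a1, the alpha 1 chain of collagen VI, read 6.89, 6.83, 6.95, 6.92 and 6.98 in Dp1Yey and 6.92, 7.07, 6.93, 6.97 and 7.00 in control mice. The groups overlapped (difference -0.063, 95% CI -0.15 to 0.024, adjusted p = 0.383, limma), with -0.041 without control replicate 2, the highest mouse. Its partner chain Col6a2 differed by -0.033 and Col18a1, the basement membrane collagen from which endostatin is cut, by -0.066. Lrrc3, Tspear and Umodl1 differed by -0.015, -0.073 and -0.073. Meningeal fibroblast markers, beside these, had a mean level of 7.36 to 8.05 in Dp1Yey and 7.42 to 7.86 in control mice, and at an unadjusted p under 0.05 there were 2 of 10 higher and 1 lower. Their part was not tested.

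Signalling and transcription held 3 members, all on Mmu17. Pde9a, the phosphodiesterase of highest affinity for cyclic GMP, read 7.72, 7.57, 7.54, 7.57 and 7.54 in Dp1Yey and 7.81, 7.41, 7.38, 7.29 and 7.43 in control mice. Each Dp1Yey mouse lay above 4 of the 5 control mice and below control replicate 1. The difference was 0.12 (95% CI -0.055 to 0.30, adjusted p = 0.408, limma), and without control replicate 1 it was 0.21 (adjusted p = 0.0723, limma). Sik1, a salt-inducible kinase of the CREB pathway that is itself induced by activity, read 8.41, 8.72, 8.60, 8.61 and 8.39 in Dp1Yey and 8.66, 8.17, 8.16, 8.68 and 8.61 in control mice. It had one of the widest spreads, with control replicates 2 and 3 low and the other control mice within the Dp1Yey range (difference 0.091, 95% CI -0.16 to 0.34, adjusted p = 0.664, limma). The difference was 0.019 without control replicate 2, 0.016 without control replicate 3 and 0.15 without control replicate 4. Pknox1, a TALE homeobox factor, differed by -0.0068 (95% CI -0.11 to 0.093).

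The 8 members best known from other tissues all lay below control. All had a mean signal under 7, and 6939 of 9549 genes outside the Mmu16 interval at 7 or under lay below control. Tff1, a trefoil peptide of the gastric mucosa (Mmu17, Entrez 21784, 31161395 to 31165060), had the smallest p of the 49. It read 6.51, 6.42, 6.42, 6.48 and 6.43 in Dp1Yey and 6.62, 6.92, 6.65, 6.67 and 6.61 in control mice. Every Dp1Yey mouse lay below every control mouse, and control replicate 2 stood well above the others. The level was 6.45 ± 0.0391 (SD, n = 5) in Dp1Yey against 6.70 ± 0.131 (SD, n = 5) in controls, and the difference was -0.25 (0.844-fold, 95% CI 0.776 to 0.918, adjusted p = 0.0645, limma). Without control replicate 2 the difference was smaller, -0.19, but passed the threshold (adjusted p = 0.0231, limma). With the interquartile range in the fit, as for Aire, it was -0.16 (adjusted p = 0.604, limma).

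Tff3, the intestinal trefoil peptide of the same gene cluster, read 6.35, 6.31, 6.32, 6.29 and 6.38 in Dp1Yey and 6.33, 6.83, 6.43, 6.39 and 6.43 in control mice. Here the groups overlapped and control replicate 2 alone stood apart (difference -0.15, 95% CI -0.32 to 0.019, adjusted p = 0.302, limma). Without that mouse the difference was -0.063, and with the interquartile range in the fit it was -0.026. Tff2, which lies between them, had a signal just above background, at 5.48, and differed by -0.10. Cryaa, the alpha A crystallin of the lens, read 5.78, 5.74, 5.84, 5.78 and 5.78 in Dp1Yey and 5.81, 6.03, 5.81, 5.87 and 5.82 in control mice, with control replicate 2 highest (difference -0.085, 95% CI -0.18 to 0.011, adjusted p = 0.304, limma), and without it the difference was -0.045. Rsph1, a radial spoke protein of motile cilia, was at 6.99 in control replicate 1 and at 6.19 to 6.32 in the other control mice, and Dp1Yey mice lay between 6.23 and 6.39. Its difference of -0.071 turned to 0.078 without control replicate 1, the array with the highest mean of both the 7 choroid plexus markers (8.50) and the 8 ependymal markers (7.05). The part of these cells was not tested. Tmprss3, a serine protease of the inner ear, Hsf2bp, a meiotic recombination factor, and Dnmt3l differed by -0.060, -0.012 and -0.074, and the last, a germ cell cofactor of DNA methylation, was the one member at background (4.94). The annotated spans of Rsph1 and Ubash3a overlap, and so do those of Aire and Dnmt3l.

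The stretches also held 16 measured genes that are no members. On Mmu17 this was Cbs alone, cystathionine beta-synthase of the transsulfuration pathway (Entrez 12411, 31612623 to 31637233), between Pknox1 and U2af1. It is itself an Hsa21 homologue outside the duplication, left out of the list of members. The paper reports lower Cbs in Dp1Yey from its arrays and by qRT-PCR. Cbs read 8.29, 8.17, 8.18, 8.21 and 8.16 in Dp1Yey and 8.72, 8.81, 8.63, 8.59 and 8.65 in control mice, with every Dp1Yey mouse below every control mouse. Its difference of -0.47 (adjusted p = 0.000209, limma) was past the threshold in all 19 alternative fits. The members on either side of it did not move in the same way, since Pknox1 differed by -0.0068 and U2af1 by 0.070. On Mmu10, 0 of the 15 other genes were called, 13 lay below control and 8 were lower at an unadjusted p under 0.05, against 10.8% of all genes, among them keratin-associated and predicted genes at levels from 5.26 to 7.06. Of the 9549 genes outside the Mmu16 interval with a mean of 7 or under, 1458 were lower at that p. The rank statistic called 3 of the 15 lower, against 0.993% of all genes. The 3 with a signal over 8, Cfap410, Fam207a and Gatd3a, differed by 0.063, -0.022 and 0.068. These genes were named after their values were seen.

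Genes that act with the members, or belong to their families, were counted in 27 lists holding 253 measured genes, none in the Mmu16 interval. At an adjusted p under 0.05 (limma), 0 were higher and 0 lower, while 21 higher and 23 lower genes passed an unadjusted 0.05, beside 8.75% and 10.8% of all genes. The rank statistic called 3 higher and 2 lower, beside 2.46% and 0.993%. The median log2 difference was 0.0075. All 253 had a 95% interval ending under 1.5-fold, and 215 lay within 1.2-fold.

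Among partners of the RNA genes, 10 of 15 ribosome biogenesis factors lay above control and 2 were lower at an unadjusted p under 0.05 (Nop56, -0.12, adjusted p = 0.201, and Tbl3, -0.11, adjusted p = 0.217). Of 7 genes of RNA editing, the brain-specific editing regulator Adarb2 differed by 0.15, adjusted p = 0.0759, and Htr2c, the serotonin receptor whose transcript is edited, by -0.49, adjusted p = 0.0678 (both limma). Htr2c is also abundant in choroid plexus, whose 7 measured markers, 2 of them in the Mmu16 interval, all lay below control in Dp1Yey. The part of that tissue was not tested. Of 10 genes of 3' splice site recognition, 1 was higher at an unadjusted p under 0.05 (Sf3a2, 0.16, adjusted p = 0.243), and of 6 genes of tRNA methylation also 1, Mettl1, the catalytic partner of Wdr4 (0.22, adjusted p = 0.129, limma).

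Among partners of the modification and trafficking genes, 2 of 12 SUMO pathway genes passed an unadjusted p of 0.05 in opposite directions, the SUMO proteases Senp1 (0.18, adjusted p = 0.119) and Senp6 (-0.11, adjusted p = 0.148, limma). The TRAPP complex had 2 of 13 higher, Trappc1 (0.15, adjusted p = 0.135) and Trappc2l (0.13, adjusted p = 0.214, limma), centrosome proteins 3 of 12 lower, led by Cntrob (-0.17, adjusted p = 0.164, limma), endoplasmic reticulum degradation factors 1 of 9 higher (Ube2j1, 0.092, adjusted p = 0.178, limma), and arginine methyltransferases 1 of 8 higher (Prmt9, 0.14, adjusted p = 0.244, limma). Of 8 cystatins and cathepsins, 3 were higher, with Cst3 at 0.13, adjusted p = 0.0747 and Ctss at 0.20, adjusted p = 0.134 (limma). Both are abundant in glia, whose marker levels are given above, and the part of these cells was not tested.

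Among partners of the metabolic genes, cholesterol synthesis had 6 of 17 higher at an unadjusted p under 0.05, against 8.75% of all genes, led by Sc5d (0.17, adjusted p = 0.0935) and Msmo1 (0.22, adjusted p = 0.105, limma). Folate and one-carbon genes had 1 of 10 higher (Shmt2, 0.18, adjusted p = 0.151) and 1 lower (Folr1, -0.62, adjusted p = 0.137, limma), the latter itself one of the choroid plexus markers. The acyltransferases and lipins of lipid synthesis and the listed subunits of complex I had none past an unadjusted p of 0.05, of 10 genes each. Glycolysis had 1 of 12 lower (Pkm, -0.074, adjusted p = 0.231, limma). The list of Abcg1 relatives and genes of sterol transport had 1 of 6 higher (Abcg2, 0.21, adjusted p = 0.157, limma). The partners listed for Pdxk had 1 of 3 lower (Psph, -0.12, adjusted p = 0.253, limma).

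The other collagen VI chains, collagen IV and XV chains and Hspg2 all lay below control, 8 of 8, with 4 past an unadjusted p of 0.05 and a median of -0.13. Their mean levels were low, from 6.02 to 7.28, and of the 9549 genes outside the Mmu16 interval at 7 or under, 6939 lay below control and 1458 were lower at an unadjusted p under 0.05. The part of this shift of dim genes was not tested. Col15a1 (-0.18, adjusted p = 0.0564) and Col6a5 (-0.15, adjusted p = 0.0669, limma) had the smallest p, at dim mean levels of 6.48 and 6.02. The S100 family had 0 of 10 past an unadjusted p of 0.05, with S100a1 at 0.11, adjusted p = 0.268 and S100a6 at 0.19, adjusted p = 0.268 (limma). Partners of the leukocyte integrin chain had 1 of 7 higher (Itgam, 0.11, adjusted p = 0.240) and 1 lower (Icam1, -0.20, adjusted p = 0.225, limma), TRPM channels 1 of 7 lower (Trpm3, -0.21, adjusted p = 0.229, limma) and DNA methylation genes 3 of 7 lower, led by Dnmt3a (-0.11, adjusted p = 0.184) and Dnmt3b (-0.11, adjusted p = 0.198, limma). Cyclic GMP genes had 1 of 11 higher (Pde5a, 0.18, adjusted p = 0.0958, limma), the SIK, CRTC and CREB genes 1 of 14 lower (Hdac5, -0.11, adjusted p = 0.183, limma), TALE and HOX partners 1 of 7 lower (Hoxb1, -0.16, adjusted p = 0.191, limma), small heat shock proteins 1 of 6 lower (Hspb2, -0.084, adjusted p = 0.206, limma), and radial spoke and cilia genes none of 8.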

How the data were processed

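Hippocampal RNA of 5 Dp1Yey mice and 5 control littermates was measured on 10 arrays. The authors deposited log2 values after RMA, which corrects background, normalises probes by quantiles and gives 1 value per probe set. RMA, limma and mm10 are named in the submitters' processing notes. Which arrays shared a normalisation is not given in these sources. Labels and methods differ on the amount of input RNA. Of 35556 probe sets, 21789 had 1 gene symbol in the platform annotation, 1621 several and 12146 none, and only the first were used. Each gene was read from its brightest probe set, which left 19938 genes, and RefSeq (GRCm38.p6) gave positions for 19855.

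Groups came from the sample labels. Dp1Yey was compared with control by limma 3.58.1 under R 4.3.3 (lmFit, then eBayes, with no other factor, two-sided, Benjamini-Hochberg over all genes, called at an adjusted p under 0.05). The study's methods used a rank statistic (FCROS), which was rewritten as an alternative with all 25 pairs of arrays, a trim of 0.25 and tails at 0.025 and 0.975, since limma also gives errors and intervals. Other alternatives were a new quantile normalisation, median centring, genes above background only, averaging the probe sets of each gene, a fit over all probe sets, array weights, eBayes with a trend on intensity and a robust prior, the interquartile range as a covariate, the replicate number as a block, leaving out each array and leaving out control replicates 1 and 2. The code was tested on simulated data.

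The members, lists, roles, level classes, motifs and tests were chosen with earlier results of these data known. Mouse by mouse values are given for the 4 members of smallest p and the 3 of highest mean on each chromosome and for S100b, Adarb1, Sumo3, Col6a1, U2af1, Pde9a and Sik1, and at most 2 genes of smallest p are named from each partner list. No p was computed over lists or means of members. Same-numbered mice did not deviate together (correlations -0.33 to 0.22 over the 5 numbers, and 1 of 5 Dp1Yey mice correlated best with its own number), so the numbers were not used as pairs. Arrays give no read depth, and their number limits the precision. Scanner files were not used here.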

Additional observations from a re-analysis of the deposited data

Results flagged for a closer look

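Each of the 49 members and Cbs was examined in both groups for a mouse whose gap to the nearest other mouse of its group was large against the group's range (Dixon's 95% limit), 100 groups in all. Chance flags about 1 in 20 groups, and 10 values stood apart here, 5 of them in control replicate 2 and 3 in control replicate 1.

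Control replicate 2 was low for Rrp1, at 11.08 against 11.24 to 11.25 in the other control mice, and for Sumo3, at 9.32 against 9.67 to 9.75. The same mouse was high for Tff3, at 6.83 against 6.33 to 6.43, for Tff1, at 6.92 against 6.61 to 6.67, and for Cryaa, at 6.03 against 5.81 to 5.87. Of the 49 members it was the highest control mouse for 21 and the lowest for 12. Its array had the highest median (6.44), the highest mean of the olfactory receptor genes (4.85) and the smallest interquartile range (3.40) of the 10 arrays. The part of these array-wide values in the single genes was not tested.

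Control replicate 1 was high for Rsph1, at 6.99 against 6.19 to 6.32, for Pde9a, at 7.81 against 7.29 to 7.43, and for Dip2a, at 8.74 against 8.59 to 8.62. Dp1Yey replicate 1 was high for Pde9a, at 7.72 against 7.54 to 7.57 in the other Dp1Yey mice, and Dp1Yey replicate 5 for Agpat3, at 10.93 against 10.80 to 10.84.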

How the results depend on the processing

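All 49 members kept a 95% interval under 1.5-fold in all 19 alternative fits (48 of 48 where only genes above background were fitted), and 37 to 46 lay within 1.2-fold. The limma count of members called stayed at 0 on Mmu10 in every alternative fit, while the rank statistic called 1, Aire. On Mmu17 it was 1, Tff1, with array weights (log2 difference -0.21, adjusted p = 0.0285), without control replicates 1 and 2 (-0.20, 0.0403) and by the rank statistic, and 0 to 1 over the fits that leave out 1 array, with the 1 without control replicate 2 (-0.19, 0.0231). Over all alternative fits the adjusted p of Tff1 ran from 0.0231 to 0.604. With the replicate number as a block, although the numbers do not pair the mice, 0 members were called and Tff1 had an adjusted p of 0.139.

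The Mmu10 median difference moved from -0.015 to 0.032 with median centring, to 0.0051 with the interquartile range covariate and to -0.031 with the mean of all probe sets, and ran from -0.033 to -0.0091 without single arrays. The Mmu17 median moved from -0.055 to -0.0080 with the interquartile range as a covariate, -0.0083 with median centring, -0.015 with a new quantile normalisation and -0.0018 without control replicates 1 and 2, and ran from -0.070 to -0.027 without single arrays. Median centring shifted all genes outside the Mmu16 interval to a median of 0.031.

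Of the 49 members, 24 kept their sign in all 19 fits and 25 did not. Among those described by mouse, the sign turned for Pfkl with median centring (0.0046), for Sik1 (-0.0037), Sumo3 (-0.062) and U2af1 (-0.046) with the interquartile range covariate, for Sumo3 (-0.019) and U2af1 (-0.0010) without control replicates 1 and 2, and for Sumo3 without control replicate 2 alone (-0.0049, and up to 0.10 without other single arrays). The causes were not tested. With 5 mice a group, the median 95% interval of the members reached 0.11 to either side.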
